A study of Mus musculus with 6 samples.

Results

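The genes described here are 74 splicing regulators: the SR proteins, the hnRNPs, the CLK and SRPK kinases, the Tra2 and Srrm genes and the RBM proteins. They were taken from the 22081 genes of the deposited table by their symbols, as protein-coding genes with a mean of at least 5 over the 6 libraries. Of 76 protein-coding genes with a matching symbol, Rbm11 (mean 4) and Rbm46 (mean 2.33) were below that limit, and the lowest gene above it was Srsf12, with 9 to 41 in the control libraries. The 74 comprised 11 SR proteins, 20 hnRNPs, 4 CLK kinases, 3 SRPK kinases, 4 Tra2 and Srrm genes and 32 RBM genes.

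Muscle stem cells (MuSCs) were sorted from C57BL/6 mice and their total RNA was sequenced, with 3 libraries of the genotype label control, whose titles read WT, and 3 of the label Taf4asKO, whose titles read Taf4a-KO. Taf4asKO mice carried floxed Taf4a alleles and a tamoxifen-inducible Cre expressed from Pax7, so that tamoxifen given to adult mice deletes a pair of Taf4a exons in Pax7-expressing cells. According to the study's methods, controls were littermates that carried the floxed alleles too, with or without the Cre allele. Which of these the sequenced controls were, and whether they received tamoxifen, is not stated, and male and female mice were used. Taf4, the current symbol of Taf4a, had normalized counts (reads per gene divided by a size factor of the library, rounded by the authors) of 613, 534 and 478 in control and 631, 565 and 574 in the Taf4asKO-labelled libraries. The groups overlapped, so this value did not separate them. It is a total over the gene, values per exon were not analysed here, and directions follow the labels.

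Splicing removes introns from pre-mRNA, and the choice among alternative exons depends on proteins that bind the transcript near splice sites. SR proteins, which carry a domain rich in arginine and serine, mostly promote the use of the exons they bind, whereas hnRNPs often repress them. CLK and SRPK kinases phosphorylate the arginine-serine domain and so set where SR proteins reside and how they act. Many of these genes limit their own protein through alternative exons that expose the transcript to nonsense-mediated decay. A count over all exons of a gene, as used here, sums productive and decay-prone transcripts.

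The targeted protein TAF4A is a subunit of the general transcription factor TFIID, and the study also examined NF-Y, a transcription factor that binds CCAAT. The sequences upstream of the start site, where such factors bind, are shown for 6 of the genes that changed: Hnrnpa1, Srsf6 and Tra2b, which were lower in the Taf4asKO-labelled libraries, and Srsf2, Clk4 and Hnrnph3, which were higher. Each is the 150 bases before the RefSeq start on GRCm38.p6 (mm10), read 5′ to 3′ on the gene's strand. Capitals mark 3 motifs. The first is CCAAT, which reads ATTGG on the opposite strand. Another is the CREB and ATF type motif GACGTCA, whose opposite strand reads TGACGTC. The last is the TATA box motif TATAAA, whose opposite strand reads TTTATA. All but the first motif were chosen after the sequences had been seen.

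Hnrnpa1 (chr15:103240247-103240396, plus strand): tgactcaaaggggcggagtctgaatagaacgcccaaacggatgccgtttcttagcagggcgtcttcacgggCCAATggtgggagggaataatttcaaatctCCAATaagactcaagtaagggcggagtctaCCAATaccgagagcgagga
Srsf2 (chr11:116853095-116853244, minus strand): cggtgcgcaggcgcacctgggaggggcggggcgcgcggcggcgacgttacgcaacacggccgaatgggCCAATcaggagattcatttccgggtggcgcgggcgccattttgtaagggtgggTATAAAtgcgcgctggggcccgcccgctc
Srsf6 (chr2:162931358-162931507, plus strand): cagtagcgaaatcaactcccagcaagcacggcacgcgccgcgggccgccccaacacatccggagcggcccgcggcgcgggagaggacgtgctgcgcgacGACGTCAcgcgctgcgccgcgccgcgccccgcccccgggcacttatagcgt
Tra2b (chr16:22266006-22266155, minus strand): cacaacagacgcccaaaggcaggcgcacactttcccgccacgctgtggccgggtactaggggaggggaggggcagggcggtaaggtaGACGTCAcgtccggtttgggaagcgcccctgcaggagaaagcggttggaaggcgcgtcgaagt
Clk4 (chr11:51262964-51263113, plus strand): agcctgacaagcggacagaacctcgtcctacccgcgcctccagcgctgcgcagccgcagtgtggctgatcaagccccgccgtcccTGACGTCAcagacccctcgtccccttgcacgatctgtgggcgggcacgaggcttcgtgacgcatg
Hnrnph3 (chr10:63023850-63023999, minus strand): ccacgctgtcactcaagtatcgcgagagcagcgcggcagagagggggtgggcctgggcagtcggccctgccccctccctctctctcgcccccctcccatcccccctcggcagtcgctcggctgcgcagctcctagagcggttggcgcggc

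Hnrnpa1 held CCAAT 3 times in this stretch, and Srsf2 held 1 CCAAT and 1 TATAAA. Srsf6, Tra2b and Clk4 each held GACGTCA, which in Clk4 is part of the palindromic TGACGTCA, and Hnrnph3 held none of the motifs. Of the 74 genes, 64 had a full 300-base window (250 bases before to 50 after the start) in the RefSeq promoter set used here. CCAAT was present for 32 of these 64 (50%) and in 41.1% of all 27025 genes with a window, GACGTCA for 9 (14.1%) against 3.6%, and TATAAA for 10 (15.6%) against 15.7%. The 9 include Srsf6, Tra2b and Clk4, whose sequences were seen before GACGTCA was chosen, and the 27025 genes were not limited to those tested here. The other members with GACGTCA were Hnrnpm, Rbm12, Rbm28, Rbm48, Rbm7 and Tra2a. These are matches of letters, not measured binding sites, and genes that rose and genes that fell were found with each of CCAAT and GACGTCA.

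Most splicing regulators did not pass the test, and those that did were split between lower and higher. Of the 74, 10 passed the threshold (13.5%; limma, adjusted p below 0.05 with at least a 1.3-fold difference), with 7 below and 3 above control in the Taf4asKO-labelled libraries. Over all 18562 genes tested, 12.6% passed, 6.71% lower and 5.93% higher, so the share among the splicing regulators was near the background. Of the 12041 protein-coding genes in the same range of mean counts, 16.8% passed. The lower genes were Rbm24, Hnrnpa1, Hnrnpdl, Tra2b, Rbm3, Rbm19 and Srsf6, and the higher ones Hnrnph3, Srsf2 and Clk4. The median log2 fold change of the 74 genes was 0.014, against 0.0040 for all genes tested.

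Changes were small. The median size of the log2 fold change, regardless of sign, was 0.139 for the splicing regulators and 0.260 for the protein-coding genes in that range. The fitted change was under 1.3-fold for 63 of 74 (85.1%), against 64.7% of those protein-coding genes. For 27 of the 74 (36.5%) the whole 95% confidence interval lay within 1.3-fold in either direction, against 14.4%. The scatter between replicates was also lower, with a median residual SD of 0.116 on the log2 scale against 0.187. The splicing regulators were also higher within that range, with a median mean count of 883 against 262, and the effect of level on these comparisons was not tested. The 134 genes of the related splicing lists had a median residual SD of 0.134, and 82.1% were under 1.3-fold. Groups did not overlap for 27 of the 74 genes (36.5%), against 40% of the protein-coding genes in that range and 33% of all genes tested.

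**Figure D1:**
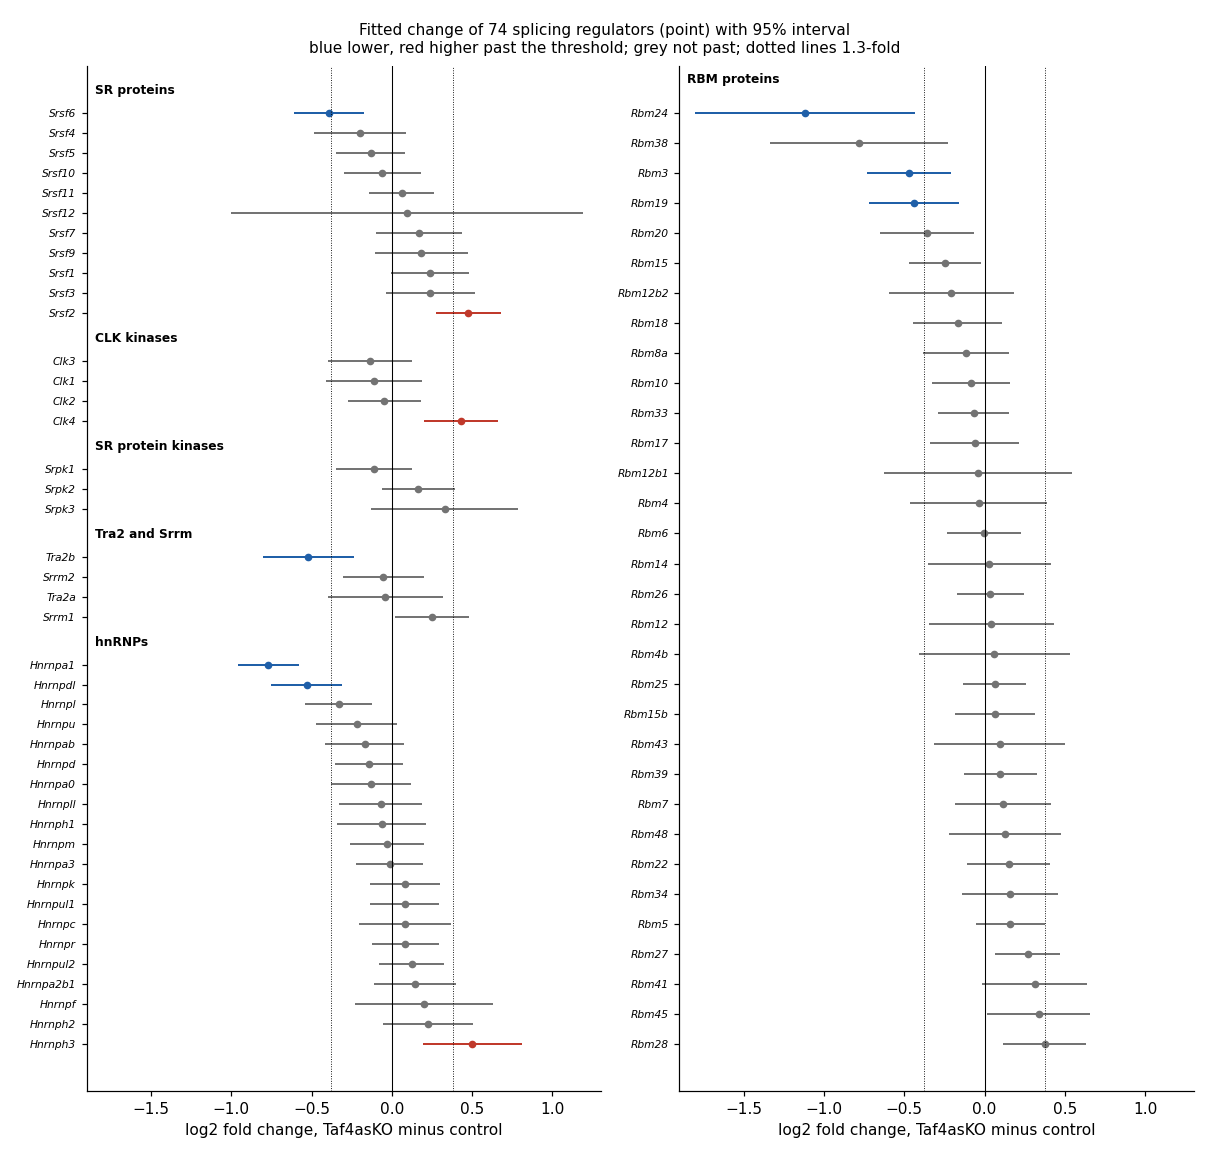
Fitted log2 fold change (x axis, Taf4asKO minus control) of each of the 74 splicing regulators, by family, with its 95% confidence interval. Blue and red points are the 7 lower and 3 higher genes past the threshold, dotted lines mark 1.3-fold, and most grey intervals cross or lie near 0, with Srsf12 the widest.

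The 10 calls differed in how much they rested on single libraries. Hnrnpa1, Hnrnpdl and Srsf2 passed in all 6 fits that each left out 1 library. The other 7 lost the call in 3 to 5 of these fits. Without control replicate 1, 6 splicing regulators passed, with 8 without control replicate 2, 8 without control replicate 3, 4 without Taf4asKO replicate 1 and 3 without Taf4asKO replicate 2 or 3. The share of all genes tested that passed was 9.24% to 16.6% in the fits without a control library and 5.14% to 6.72% in those without a Taf4asKO library.

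Among the SR proteins, Srsf2 rose and Srsf6 fell. Srsf2 (ENSMUSG00000034120, mm10 chromosome 11, 116849901 to 116853094, minus strand), also known as SC35 and a classic marker of nuclear speckles, had normalized counts of 2440, 2474 and 2376 in control and 3611, 3195 and 3352 in the Taf4asKO-labelled libraries. All 3 latter libraries lay above all controls, whose values were close to each other. The log2 fold change was 0.48 (SE 0.09, 95% interval 0.28 to 0.68, adjusted p 0.00773) and stayed between 0.43 and 0.52 when 1 library was left out. Mettl23 and Mfsd11 overlap 15.6% and 9.74% of the Srsf2 exon length on the opposite strand, and had only 85 to 128 and 182 to 243 normalized counts, with neither past the threshold.

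Srsf6 (ENSMUSG00000016921, chromosome 2, 162931528 to 162937121, plus strand), which like other SR proteins promotes inclusion of the exons it binds, had 3370, 3313 and 2928 in control and 2581, 2392 and 2342 in the Taf4asKO-labelled libraries. The groups did not overlap. Its log2 fold change of -0.39 (SE 0.10, adjusted p 0.0250) was just past the fold limit, and it passed in only 2 of 6 fits that left out 1 library. It no longer passed without control replicate 1 (-0.35), control replicate 2 (-0.37), Taf4asKO replicate 2 (-0.379, adjusted p 0.117) or Taf4asKO replicate 3 (-0.36).

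The other 9 SR proteins did not pass. Srsf1, the founding SR protein, had 1970, 1850 and 1551 in control and 2152, 2112 and 2038 in the Taf4asKO-labelled libraries, without overlap (log2 fold change 0.24, 95% interval -0.00011 to 0.47, adjusted p 0.174). Srsf3, the smallest SR protein, had the same log2 fold change of 0.24 (adjusted p 0.226), with 707 to 949 and 908 to 998. Srsf4, Srsf5, Srsf7, Srsf9, Srsf10 and Srsf11 lay between -0.20 and 0.18. The most abundant SR gene per kilobase of exon was Srsf2 (983 normalized counts per kilobase, mean of 6 libraries), followed by Srsf5 (969), and the least was Srsf12 (6.51). Srsf12, with 41, 9 and 15 in control and 16, 20 and 22 in the Taf4asKO-labelled libraries, was too low and too variable to place (0.10, 95% interval -0.99 to 1.19). For Srsf4, 43% of the exon length lies opposite Gm12992, and reads in that stretch would have been left out if counting ignored the strand.

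The kinases that phosphorylate SR proteins showed 1 change. Clk4 (ENSMUSG00000020385, chromosome 11, 51263114 to 51281766, plus strand) had 682, 595 and 604 in control and 842, 863 and 827 in the Taf4asKO-labelled libraries. These groups were well apart, and the log2 fold change was 0.43 (SE 0.10, 95% interval 0.21 to 0.65, adjusted p 0.0210). The adjusted p rose to 0.0676, 0.107 and 0.0843 when Taf4asKO replicate 1, 2 or 3 was left out, with log2 fold changes of 0.43, 0.41 and 0.45.

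Clk1, the closest relative of Clk4 and the most abundant of the family per kilobase (330 against 127 for Clk4), had 3307, 2313 and 2782 in control and 2717, 2629 and 2364 in the Taf4asKO-labelled libraries. All of the latter fell inside the control range (log2 fold change -0.11, 95% interval -0.40 to 0.18, adjusted p 0.623). Clk2 (-0.05, 95% interval -0.27 to 0.17) and Clk3 (-0.14, -0.39 to 0.12) did not pass either, and the interval of Clk2 excluded a change of 1.3-fold. Among the SRPK kinases, which act mainly in the cytoplasm on newly made SR proteins, Srpk1 (-0.11, adjusted p 0.530), Srpk2 (0.16, 0.305) and the muscle-enriched Srpk3 (0.33, 0.319) did not pass. Srpk2 did not overlap between groups, with 677 to 725 in control and 749 to 840 in the Taf4asKO-labelled libraries.

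Tra2b (ENSMUSG00000022858, chromosome 16, 22244549 to 22266005, minus strand), an SR-like activator of exons that also controls its own poison exon, fell. It had 1722, 1282 and 1365 in control and 1059, 1036 and 931 in the Taf4asKO-labelled libraries. Control replicate 1 was the highest by far, but the groups did not overlap without it either. The log2 fold change was -0.52 (SE 0.12, adjusted p 0.0229), and without control replicate 1 it was -0.39 (adjusted p 0.0599). The call was also lost without Taf4asKO replicate 1 (-0.56, 0.0588), 2 (-0.54, 0.0828) or 3 (-0.46, 0.110).

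Its paralog Tra2a had 1419, 921 and 1051 against 1245, 1004 and 1011, with a log2 fold change of -0.04 (95% interval -0.39 to 0.31). Srrm2, a scaffold protein of nuclear speckles and the most abundant of all 74 genes per kilobase (1208), had 17654, 14815 and 14986 against 16389, 14846 and 14412 (-0.05, adjusted p 0.793). Srrm1, a coactivator that bridges SR proteins and the spliceosome, had 4066, 3340 and 3505 against 4428, 4213 and 4293. It was higher without overlap but did not pass (0.25, 95% interval 0.029 to 0.47, adjusted p 0.128).

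The largest and tightest change among the hnRNPs was a fall of Hnrnpa1, which represses splice sites and often opposes SR proteins. Hnrnpa1 (ENSMUSG00000046434, chromosome 15, 103240432 to 103244955, plus strand) had 2969, 2993 and 3032 in control and 1797, 1758 and 1726 in the Taf4asKO-labelled libraries. Mean values were 2998 ± 31.8 and 1760 ± 35.6 (SD, n = 3), so the difference was many times the spread in either group. The log2 fold change was -0.77 (SE 0.08, 95% interval -0.95 to -0.58, adjusted p 0.000581), and it stayed between -0.78 and -0.75 when 1 library was left out. Among the 15 alternatives run it lost its call only under a fold limit of 2. Reads that map to several places were removed by the authors, so copies of Hnrnpa1 elsewhere in the genome could lower its values.

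Hnrnpdl (ENSMUSG00000029328, chromosome 5, 100033577 to 100039222, minus strand), a relative of the mRNA-decay factor Hnrnpd, had 3383, 2966 and 3242 in control and 2368, 2195 and 2077 in the Taf4asKO-labelled libraries. It too was lower without overlap (log2 fold change -0.53, SE 0.10, adjusted p 0.00673). Hnrnph3 (ENSMUSG00000020069, chromosome 10, 63014664 to 63023894, minus strand), a small member of the hnRNP H and F group, rose from 684, 493 and 512 to 820, 737 and 810. Its log2 fold change was 0.50 (SE 0.14, adjusted p 0.0383), but it was the least stable of the 10 calls and passed in 7 of 15 alternatives. With the deposited values rescaled to equal upper quartiles its adjusted p was 0.0726, and with rescaling to equal totals it was 0.0593. Of the fits that left out 1 library, Hnrnph3 passed only in that without control replicate 1, with log2 fold changes from 0.41 to 0.65 over the 6 fits.

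The remaining 17 hnRNPs did not pass. Hnrnpl, a repressor that binds CA-rich RNA, had an adjusted p of 0.0405 but a fold change under the limit (log2 -0.33). It had 2599, 2828 and 2546 in control and 2178, 2166 and 1993 in the Taf4asKO-labelled libraries, without overlap. For 11 of the 20 hnRNPs the 95% interval lay within 1.3-fold, among them Hnrnpa3 (-0.21 to 0.19), Hnrnpk (-0.13 to 0.29) and Hnrnpm (-0.25 to 0.19). The most abundant hnRNP genes per kilobase were Hnrnpa2b1 (1115) and Hnrnpab (1018), with log2 fold changes of 0.14 (adjusted p 0.439) and -0.17 (0.333). Of the Hnrnpab exon length, 29.1% lies opposite Phykpl.

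The RBM genes share an RNA-binding domain rather than a function, and 3 of 32 passed (9.38%, against 12.6% of all genes tested), all lower. Rbm24 (ENSMUSG00000038132, chromosome 13, 46418434 to 46431095, plus strand), a muscle-enriched regulator of splicing in muscle differentiation, had 769, 984 and 416 in control and 413, 339 and 219 in the Taf4asKO-labelled libraries. Control replicate 3 and Taf4asKO replicate 1 were almost equal, although the groups did not overlap. The log2 fold change was -1.12 (SE 0.30, 95% interval -1.80 to -0.44, adjusted p 0.0386), the largest among the 74 genes and the only one past a fold limit of 2. It ranged from -1.47 to -0.85 when 1 library was left out, and passed only without control replicate 3. With the replicate number as a block its adjusted p was 0.000337. The summed level of 7 myofibre marker genes was 6725, 13961 and 5656 in control and 12187, 8595 and 6697 in the Taf4asKO-labelled libraries, so within the Taf4asKO-labelled libraries both measures were highest in replicate 1 and lowest in replicate 3. In control both were highest in replicate 2 and lowest in replicate 3. Between the groups the marker sums overlapped and none of the 7 marker genes passed, and their part in the Rbm24 result was not tested.

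Rbm38, the closest paralog of Rbm24 and a p53 target, had 152, 130 and 90 in control and 88, 55 and 71 in the Taf4asKO-labelled libraries. It did not pass (log2 fold change -0.78, adjusted p 0.0646), but did with the replicate number as a block (adjusted p 0.0234), where 11 of 74 splicing regulators passed against 18.1% of all genes tested. Rbm20, which controls splicing of titin, was below the fold limit (-0.36, adjusted p 0.0953), with 1319, 1051 and 1496 against 1008, 997 and 977.

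Rbm3 (ENSMUSG00000031167, chromosome X, 8138978 to 8145880, minus strand), a cold-inducible RNA-binding protein, had 823, 653 and 726 in control and 547, 534 and 501 in the Taf4asKO-labelled libraries (log2 fold change -0.47, SE 0.11, adjusted p 0.0251). Rbm19 (ENSMUSG00000029594, chromosome 5, 120116465 to 120198981, plus strand), a nucleolar factor of ribosomal RNA processing, had 329, 313 and 336 against 218, 251 and 252 (-0.44, SE 0.12, adjusted p 0.0413). Both were lower without overlap, and both passed in only 1 of the 6 fits that left out 1 library, that without control replicate 2. For Rbm19, 14.6% of the exon length lies opposite Gm10390.

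The other RBM genes lay between -0.78 and 0.37. The highest was Rbm28, another nucleolar factor, with 648, 586 and 523 against 723, 734 and 814 (0.37, adjusted p 0.0582). The RBM genes most abundant per kilobase were the splicing coactivator Rbm39 (658) and the spliceosomal Rbm17 (270), with log2 fold changes of 0.10 (adjusted p 0.560) and -0.06 (0.784). Rbm4, Rbm12 and Rbm14 share 60.5%, 32.6% and 18.6% of their exon length with genes annotated on the same strand that read through them, and reads over several genes were left out by the authors, so their levels may be too low.

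**Figure D2:**
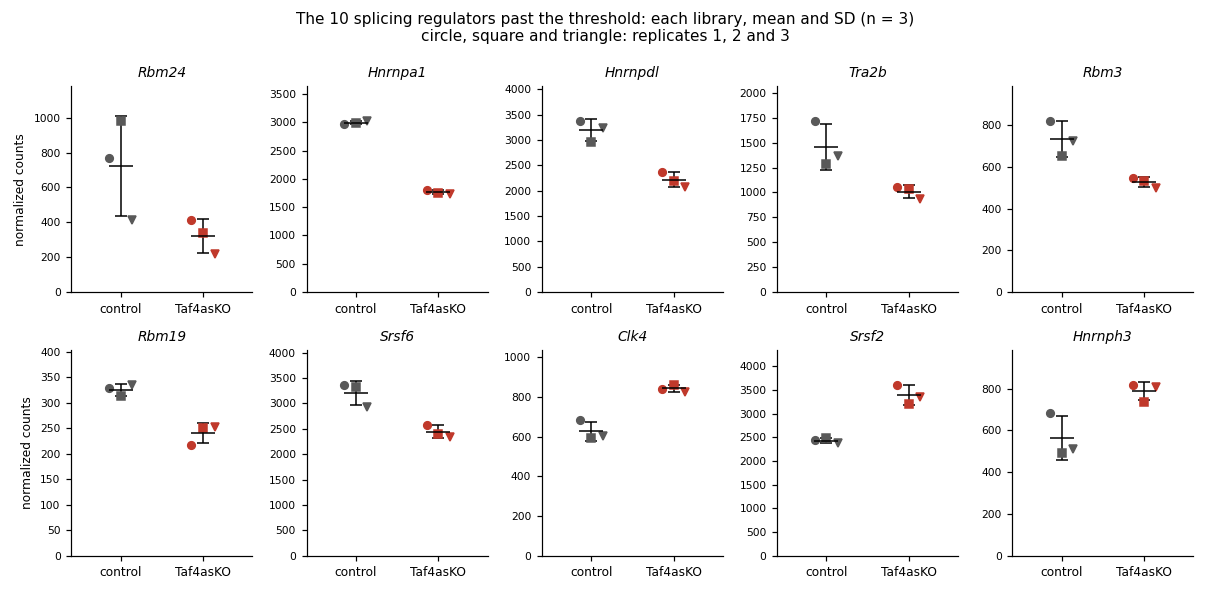
Normalized counts (y axis, from 0) of the 10 splicing regulators past the threshold in each of the 3 control and 3 Taf4asKO libraries, with the mean and SD (n = 3). The points of Hnrnpa1 lie close together in each group (1726 to 1797 against 2969 to 3032), whereas those of Rbm24 nearly touch (413 against 416).

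Pairs of related genes were then compared within each library, as the ratio of their normalized counts per kilobase of exon. The 8 pairs were chosen with the fold changes known. Srsf2 and Srsf6 are the 2 SR genes past the threshold, 1 higher and 1 lower, so a shift of their ratio followed from that choice. The ratio of Srsf2 to Srsf6 was 1.18, 1.21 and 1.32 in control and 2.28, 2.17 and 2.33 in the Taf4asKO-labelled libraries. That of Hnrnpa1 to Hnrnpa2b1 fell from 0.783, 0.930 and 0.999 to 0.447, 0.493 and 0.497. In both pairs the groups were far apart relative to their spread.

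The ratio of Clk4 to Clk1 was 0.289, 0.361 and 0.305 in control and 0.435, 0.460 and 0.491 in the Taf4asKO-labelled libraries, and that of Tra2b to Tra2a 0.913, 1.05 and 0.977 against 0.640, 0.776 and 0.693. Hnrnph3 to Hnrnph1 had means of 0.171 and 0.254. Hnrnpdl to Hnrnpd (means 2.87 and 2.19) differed by less, with 2.49 the lowest control and 2.45 the highest Taf4asKO value. Rbm24 to Rbm38 overlapped (4.16, 6.22 and 3.80 in control against 3.86, 5.07 and 2.53), although the Taf4asKO value was the lower one for each replicate number. The exact two-sided permutation p, without pairing by replicate number, was 0.1 for each of the 7 pairs without overlap, the smallest that 3 against 3 libraries allow, and 0.114 after adjustment over the 8 pairs. The 8th pair, Rbm3 to Cirbp, is given in the closing observations.

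**Figure D3:**
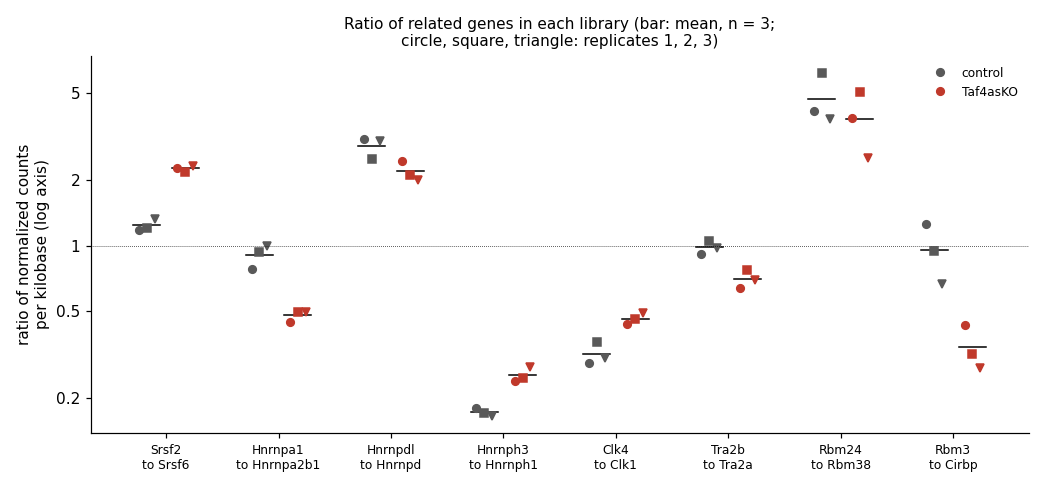
Ratio of normalized counts per kilobase of exon (y axis, log scale) for 8 pairs of related genes in each library, with the mean of each group as a bar (n = 3). The groups do not overlap in 7 pairs and overlap for Rbm24 to Rbm38.

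Most of these genes have annotated transcripts that are targets of nonsense-mediated decay or retain an intron. In GENCODE M21, 41 of the 74 genes (55.4%) had at least 1 transcript annotated for nonsense-mediated decay, against 27.4% of the 13962 protein-coding genes tested and annotated, and 54 (73%) had a retained-intron transcript, against 56.3%. All 4 CLK genes and all 4 Tra2 and Srrm genes had both kinds. Of the 11 SR genes, 9 had a decay transcript, as did 12 of 32 RBM genes. The splicing regulators also had more annotated transcripts (median 7 against 5). The deposited values do not separate these transcripts.

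Few genes of the rest of the splicing machinery passed. Of 134 tested genes in 6 lists of spliceosomal proteins, other splicing regulators, decay factors and kinases, 10 passed (7.46%, against 12.6% of all genes tested), 6 lower and 4 higher. The lists were chosen with earlier results of these data known. None of 25 proteins of the U1 and U2 particles passed the limma test. Of the 25, 6 had an unadjusted p under 0.05 in that test, as did 5344 of all 18562 genes tested. Of 30 proteins of the tri-snRNP and the catalytic core, 1 passed, the spliceosomal factor Syf2 (log2 fold change 0.41, adjusted p 0.0225). With the replicate number as a block, 2 of these 30 passed, against 18.1% of all genes tested.

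Of 17 Sm and LSm proteins, the ring proteins that hold spliceosomal RNAs, 2 passed (11.8%, near the 12.6% of all genes tested) and both fell. Lsm6 had 477, 628 and 454 in control and 299, 290 and 265 in the Taf4asKO-labelled libraries (-0.85, adjusted p 0.00456), and Lsm4 had 213, 225 and 250 against 132, 144 and 144 (-0.71, adjusted p 0.00985). Both belong to the LSm ring of U6. The Sm genes did not pass.

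Among 34 other splicing regulators, 3 passed (8.82%, against 12.6% of all genes tested). The polypyrimidine tract proteins moved apart, with Ptbp2 lower (936, 813 and 856 against 594, 621 and 516, log2 fold change -0.59, adjusted p 0.00826) and Ptbp3 higher (861, 805 and 824 against 1294, 1095 and 1078, 0.47, adjusted p 0.0168). Ptbp1 did not pass (-0.17, adjusted p 0.371), and Tial1, a regulator of exons near uridine-rich sequences, rose (0.43, adjusted p 0.0307). Of 17 exon junction and decay genes, 2 passed (11.8%). Casc3 rose (0.38, 0.0232) and Smg9, a regulator of the decay kinase SMG1, fell (-0.50, 0.0254). In the blocked fit 4 of the 17 passed, where 18.1% of all genes tested did. Of 11 further kinases, 2 passed (18.2%), and both Hipk2 (-0.69, 0.0106) and Dyrk1b (-0.48, 0.0317) fell. The calls of Casc3, Syf2 and Tial1 were lost with upper-quartile scaling (0.35, 0.37 and 0.39, the last with an adjusted p of 0.0527), where 7 of the 134 genes passed, and that of Casc3 also with total scaling (0.35). Of the 10 genes, Lsm6 and Lsm4 alone passed in all 6 fits that left out 1 library. Casc3, Smg9 and Dyrk1b were lost in 5 of them, all but that without control replicate 2 (adjusted p from 0.0522 to 0.110). Syf2 and Tial1 were lost in 4, those without Taf4asKO replicate 1, 2 or 3 and, for Syf2, control replicate 1 or, for Tial1, control replicate 3 (0.0678 to 0.119). Ptbp3 was lost without Taf4asKO replicate 1, 2 or 3 (0.0661, 0.0605 and 0.0503), Hipk2 without Taf4asKO replicate 2 or 3 (0.0545 and 0.0589) and Ptbp2 without Taf4asKO replicate 3 (0.0530).

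**Figure D4:**
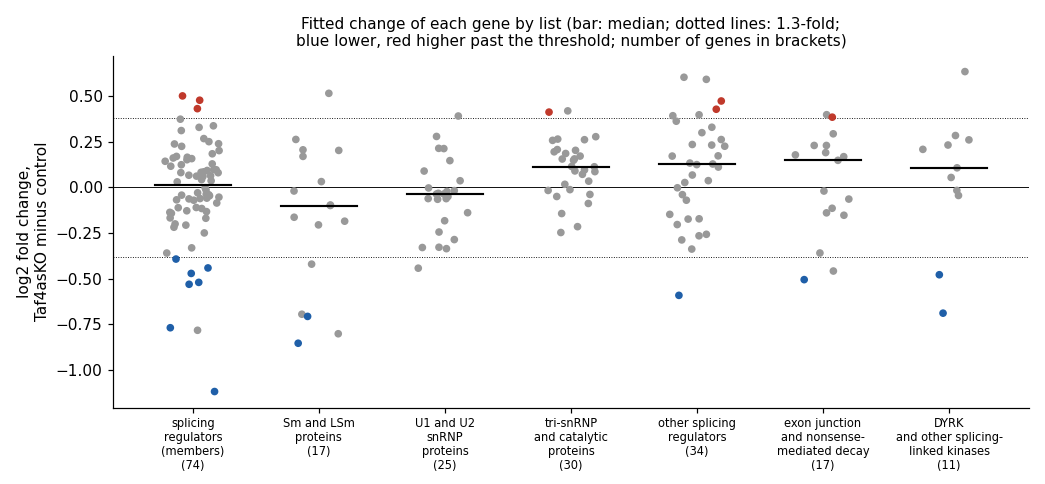
Fitted log2 fold change (y axis, Taf4asKO minus control) of each gene in the 74 splicing regulators and in 6 lists of other splicing genes, with list medians as bars and 1.3-fold as dotted lines. Medians lie between -0.10 and 0.15, and the coloured points past the threshold number 10 of 74 and 10 of 134.

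Marker genes of other cell types and states also differed between the groups. Total normalized counts were 12338676 to 14551732 per library, of which the 74 genes made up 0.896% to 1.15%. Markers of MuSCs were high in all libraries (Pax7 from 10363 to 13007), but summed to 47735 to 50422 in control and 44393 to 46423 in the Taf4asKO-labelled libraries. Of these 9 genes, 4 passed and were lower, among them Fgfr4 (-0.91) and Myf5 (-0.85), and 2 passed and were higher, Sdc4 (0.88) and Vcam1 (0.74). The sort had depleted cells with SCA1, CD45 or CD31 before MuSCs were selected. Summed Schwann cell markers were 6846 to 10312 in control and 11491 to 12708 in the Taf4asKO-labelled libraries, with 5 of 6 genes higher past the threshold. Summed endothelial markers were 879 to 1277 and 1392 to 1700 (0 of 6 past, 2 with the block), and immune markers 422 to 538 and 666 to 924 (0 of 3 past, 1 with the block). The immune sum rose through Lyz2 (94 to 357 against 465 to 729, log2 fold change 1.3), whereas Cd68 (-0.03) and Csf1r (-0.56) did not rise. Other defining immune markers, such as Ptprc and Adgre1, were not analysed here. Genes listed as fibro-adipogenic markers summed to 56472 to 82934 in control and 34100 to 56488 in the Taf4asKO-labelled libraries. Of these, Cd34 (-1.97), Col3a1 (-1.58) and Dpt (-1.69) were past and lower, and which cells their transcripts came from was not tested. Col3a1 alone had 46225 to 47700 and 13082 to 17573, the other 6 fibro-adipogenic markers had positive log2 fold changes, and 5 of these, among them Pdgfra (0.98) and Dcn (0.77), passed with the block. Tenocyte markers summed to 1915 to 13547 and 6792 to 15574 (0 of 4 past, 3 with the block). Early response genes summed to 235921 to 274012 and 340811 to 430513, with 5 of 10 higher and 2 lower, and nuclear RNAs such as Malat1, of which 1 of 4 was higher and 1 lower, to 177767 to 241059 and 344556 to 359911. The part of these differences in the changes of splicing regulators was not tested. In bulk RNA a smaller share of a cell type and less RNA per cell cannot be told apart.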

How the data were processed

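Total RNA of sorted MuSCs was sequenced from stranded low-input libraries, 3 per group. By the methods of the study, reads were trimmed by the authors with Trimmomatic 0.39, aligned to mm10 with STAR 2.6.0c, cleared of multi-mapping reads, counted over exons with featureCounts 1.6.0 without reads that overlap several genes, and normalized with DESeq2 1.14.1. Whether counting used the strand is not given in the sources used here. The deposited values are a score, not raw reads: counts divided by a size factor by the authors and rounded to whole numbers, so depth is known only as normalized totals. No value column lacked a sample.

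Genes with a mean of at least 5 were fitted with limma 3.58.1 in R 4.3.3 on log2(value + 1) (intensity trend, two-sided, no covariate), a scale that understates changes of low genes. The threshold was a Benjamini-Hochberg adjusted p under 0.05 over all genes tested and a fold change of at least 1.3. The script was tested on simulated data. Exon lengths, overlaps and transcript classes are from GENCODE M21, which held all 74 genes, 48 with the same ends as in the table, and gene positions are as in the table. Per-kilobase levels divide by the union of exons. Promoters are from RefSeq (GRCm38.p6). The study describes its replicates as biological, but the labels do not say whether each library came from a separate mouse, so p-values measure the spread between libraries. Deviations from the group means correlated at 0.235, 0.126 and 0.15 for libraries with the same replicate number in the titles and at -0.149 to 0.0141 for the other pairs, so a fit with the number as a block was set beside the main one. The titles do not say what a number shares. The members and lists were chosen with earlier results of these data known. Genes named were Taf4, all SR, CLK, SRPK, Tra2 and Srrm genes, the hnRNP and RBM genes past the threshold (up to 12 of each by size) and the 2 of each most abundant per kilobase, and up to 3 genes past the threshold per other list. Hnrnpl, Hnrnpa3, Hnrnpk, Hnrnpm, Rbm38, Rbm20, Rbm28, Ptbp1, Cirbp and genes named for overlaps or motifs were chosen after their values were seen. Alternatives were the block, a pseudocount of 0.1, no filter or a mean of at least 20, upper-quartile scaling, total scaling without ribosomal protein genes, limma-voom, no fold limit or a limit of 2, and leaving out each library.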

Additional observations from a re-analysis of the deposited data

How the results depend on the processing

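Over 43 named genes and 15 alternatives, 551 values kept their direction and side of the threshold, 85 were weaker and 9 reversed. The counts of splicing regulators, 10 past the threshold (7 lower, 3 higher), were 9 to 11 under every alternative other than a fold limit of 2 and leaving out a library. Requiring a fold change of 2 left 1, with 1 lower and 0 higher, and 0 of the 10 other splicing genes and 850 genes in all, 520 lower and 330 higher. Over the fits that left out 1 library, 3 to 8 splicing regulators passed, 2 to 6 lower and 1 to 4 higher, as did 2 to 16 of the other splicing genes and 956 to 3096 genes in all, 595 to 1489 lower and 350 to 1607 higher. The upper ends of the ranges for other splicing genes and for all genes came without control replicate 2. A replicate block gave 3355 genes past the threshold in place of 2347, and the 1688 higher genes were over 1.5 times the 1101 without it. Among splicing regulators the block changed no call other than that of Rbm38. Reversed values were all near 0 or of low genes in fits that left out 1 library: Clk1 ranged from -0.24 to 0.016, Clk2 from -0.081 to 0.0098, Srrm2 from -0.11 to 0.028, Tra2a from -0.18 to 0.14, Rbm17 from -0.15 to 0.043 and Srsf12 from -0.36 to 0.67. Upper-quartile and total scaling put the median log2 fold change of all genes at -0.0335 and -0.0274 in place of 0.0040. The depth in reads is unknown, which limits statements on low genes such as Srsf12.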

Other observations

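The cold-inducible proteins Rbm3 and Cirbp moved in opposite directions. Cirbp, which is no member of the families above and was named after its value was seen, had normalized counts of 366, 385 and 605 in control and 705, 931 and 1018 in the Taf4asKO-labelled libraries (log2 fold change 0.99, SE 0.20, limma adjusted p 0.0112), whereas Rbm3 fell (-0.47). The ratio of Rbm3 to Cirbp per kilobase of exon was 1.25, 0.940 and 0.665 in control and 0.430, 0.318 and 0.273 in the Taf4asKO-labelled libraries, without overlap (exact permutation p 0.1, the smallest possible).

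Replicate 1 was the highest of the 3 libraries of its group for most splicing regulators. This held for 39 of 74 genes in control (52.7%, against 29% of all genes tested) and for 47 of 74 in the Taf4asKO-labelled libraries (63.5%, against 36.4%). Control replicate 3 was the highest for 8 of 74. The same libraries had the highest summed early response genes of their group, 274012 in control replicate 1 and 430513 in Taf4asKO replicate 1, although control replicate 3 was almost as high (271765), and the highest summed nuclear RNAs, 241059 and 359911, with control replicate 3 again close (236514). They had the lowest sums of their group for tenocyte (1915 and 6792), fibro-adipogenic (56472 and 34100), endothelial (879 and 1392), immune (422 and 666) and Schwann cell markers (6846 and 11491). The part of these differences in the pattern was not tested.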
